A study of Mus musculus with 18 samples.

Results

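The multiciliated cell transcription program is described here by 10 genes chosen by symbol, Gmnc, Mcidas, Trp73, Foxj1, Rfx2, Rfx3, Myb, Ccno, Deup1 and Cdc20b, out of 30172 genes with a value in ovaries of F1 female mice. All 10 symbols had a row in each of the 18 libraries. The mice were wild-type C57BL/6J females whose dams ate normal chow (F1-Control) or a diet with 3% methionine (F1-HHcy, for maternal hyperhomocysteinemia, a raised level of homocysteine). The dams received the diet for 4 weeks before mating according to the labels, and then until the end of lactation, and the pups themselves were not treated. Whole ovaries were taken at postnatal day 3, 7 or 21 (Pd3, Pd7 and Pd21), with 3 libraries for each diet and day. Pd3 and Pd7 were labelled batch 1 and Pd21 batch 2, so that each comparison of diets lay within 1 batch, while age and batch cannot be told apart between Pd21 and the earlier days. Neither the labels nor the methods say whether ovaries were pooled for a library, so that p-values measure the spread between these libraries.

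Multiciliated cells carry many motile cilia on their surface and line the oviduct, the airways and the brain ventricles. GMNC (also called GEMC1) and MCIDAS are coiled-coil relatives of geminin that switch the fate on together with E2F factors, and the p53 relative TRP73 acts beside them. FOXJ1 and the RFX factors then turn on genes of the motile cilium. MYB acts in cells that are leaving the cell cycle, and CCNO, DEUP1 and CDC20B serve the making of the many centrioles from which the cilia grow. In and around the ovary such cells are known from the epithelium of the oviduct and of the rete ovarii, a system of tubules next to the ovary, while Ccno and Trp73 are also known from oocytes.

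Ccno and Mcidas lie next to each other, and Cdc20b follows them, on chromosome 13 of GRCm38, the build named in the labels. All 3 are on the plus strand, Ccno at chr13:112987802-112990777, Mcidas at chr13:112993845-113000394 and Cdc20b at chr13:113035111-113091195 in GENCODE M21. The other genes lie at chr16:26913553-26991652 (Gmnc), chr4:154056253-154140208 (Trp73), chr11:116330704-116335399 (Foxj1), chr17:56775897-56831013 (Rfx2), chr19:27761721-28011166 (Rfx3), chr10:21124935-21160984 (Myb) and chr9:15559864-15627933 (Deup1), all on the minus strand. The RefSeq promoter table (GRCm38.p6) matched 9 of the 10 symbols with 12 promoters, and Foxj1 was not among them. The 250 bases before each start were searched on both strands for GTTGCC, a short motif bound by RFX factors, for GTAAACA (forkhead), for TTTCCCGC or TTTGGCGC (E2F) and for TAACGG (MYB). GTTGCC was in 4 of the 12 promoters, those of Ccno, Mcidas, Rfx2 and 1 of the 2 of Deup1, against 10.4% of the 32851 promoters in the table. No member promoter held the forkhead, E2F or MYB letters, which 3.17%, 1.3% and 2.18% of all promoters held. The bases from 250 to 31 before the start are shown for Ccno and Mcidas, neighbours of which only Mcidas was lower at Pd21 without overlap, and for Rfx2, a regulator of ciliary genes itself, with GTTGCC in capitals.
Ccno, chr13:112987552-112987771, plus strand: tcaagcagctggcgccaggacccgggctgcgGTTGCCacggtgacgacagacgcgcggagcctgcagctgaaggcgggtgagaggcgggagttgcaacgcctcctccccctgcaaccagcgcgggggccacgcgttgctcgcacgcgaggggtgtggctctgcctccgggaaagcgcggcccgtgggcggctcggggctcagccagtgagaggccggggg
Mcidas, chr13:112993618-112993837, plus strand: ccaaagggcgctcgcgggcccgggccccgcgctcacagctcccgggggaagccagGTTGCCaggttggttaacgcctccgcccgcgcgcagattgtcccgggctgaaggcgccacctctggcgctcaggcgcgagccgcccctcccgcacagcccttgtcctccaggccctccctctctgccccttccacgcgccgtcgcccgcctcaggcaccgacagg
Rfx2, chr17:56831039-56831258, minus strand: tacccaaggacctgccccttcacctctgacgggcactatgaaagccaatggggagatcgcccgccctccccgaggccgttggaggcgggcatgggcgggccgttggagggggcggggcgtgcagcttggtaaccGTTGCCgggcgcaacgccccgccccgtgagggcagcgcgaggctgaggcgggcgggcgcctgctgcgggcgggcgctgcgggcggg
The letters began at -219 in Ccno, -195 in Mcidas and -116 in Rfx2, counted from the start, and are a description of the sequence only.

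Levels are given in FPKM, fragment numbers scaled to the length of the gene and the depth of the library, which allow genes to be compared per length. Between 33630547 and 39399215 fragments were counted on genes per library. The length behind the values differed from that of the joined GENCODE M21 exons, for example 5233 against 1828 bases for Cdc20b and 4010 against 2377 for Mcidas, so that the order of levels between genes depends on the annotation while a comparison of libraries does not. The labelled tissue was checked by its markers. At Pd21 the summed level of 14 oocyte markers was 1719 to 2558 FPKM in F1-Control and 1794 to 2659 FPKM in F1-HHcy, and that of 8 granulosa cell markers was 959 to 1281 and 983 to 1542 FPKM. None of the 14 oocyte markers, 8 granulosa markers or 8 proliferation markers was called between the diets at Pd21. Of all 13350 genes tested, 686 were called in either direction, and at that share the lack of calls is no result about these lists. In such bulk samples, fewer cells of a type and less RNA per cell cannot be told apart.

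Diets were compared with limma on log2(FPKM + 1) for genes that reached 1 FPKM in 3 or more libraries of a day. Called genes had an unadjusted p under 0.05 with a change of more than 0.58 on the log2 scale in either direction, and adjusted p-values are Benjamini-Hochberg values from limma over all genes tested. Because 7 of the 10 genes fell below this filter on at least 1 day, the recovered fragment numbers were also tested with limma-voom without a filter, an alternative chosen after seeing the data.

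At Pd21 most genes of the program were lower in F1-HHcy. Every F1-HHcy library was below every F1-Control library for 9 of the 10 genes and above for none, while 8.45% of the 27810 genes with any fragment at Pd21 were lower without overlap. Mcidas, Foxj1, Cdc20b and Myb showed the widest gaps, Rfx2 and Rfx3 small ones, and Ccno overlapped.

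**Figure D1:**
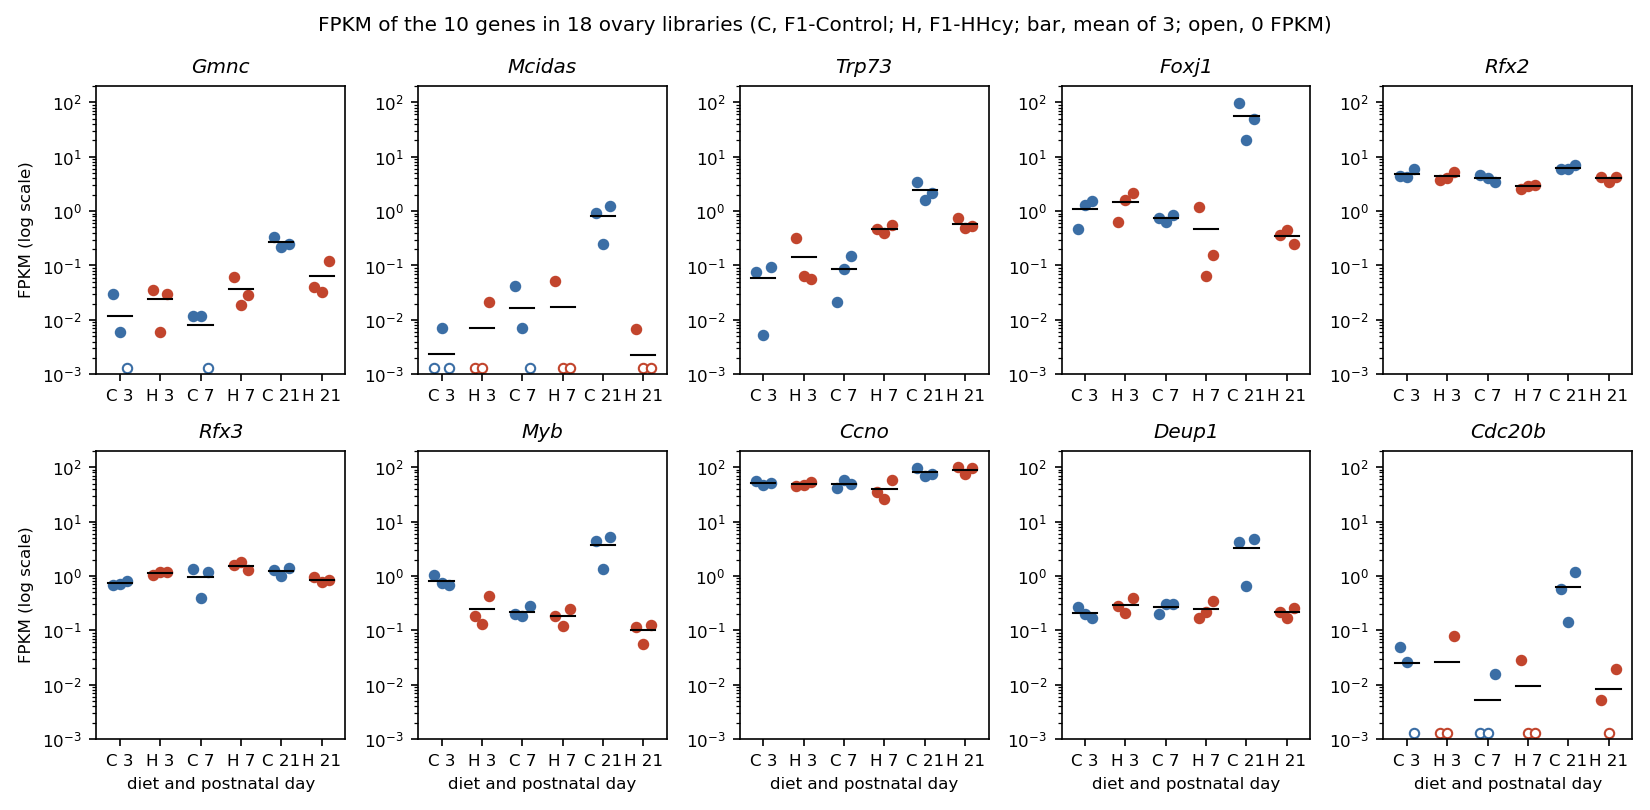
FPKM on a log axis of the 10 genes in each of the 18 libraries, by diet (C, F1-Control in blue; H, F1-HHcy in red) and postnatal day, with a bar at the mean of 3 libraries and open circles for libraries at 0. Foxj1 stood at 20.4 to 99.1 FPKM in F1-Control at Pd21 and at 0.248 to 0.441 FPKM in F1-HHcy, while Ccno overlapped between the diets on every day.

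Among the genes that set the fate, Mcidas had 0.935, 0.249 and 1.24 FPKM in the 3 F1-Control libraries at Pd21 and 0.00692, 0 and 0 FPKM in the F1-HHcy libraries. In fragments this was 146, 38 and 195 against 1, 0 and 0, a ratio of the summed fragments, scaled to depth, of 372 (exact 95% interval 66.5 to 14751, which covers counting error only). Mcidas thus was read almost only in the F1-Control libraries at that age. Its log2 fold change was -7.14 (SE 0.88, adjusted p = 0.00304 in limma-voom without a filter), and in the fit on log2(FPKM + 1) it was below the filter.

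Gmnc, which acts upstream of Mcidas, was the least abundant of the 10 genes in the F1-Control ovary at Pd21 with 0.340, 0.216 and 0.253 FPKM. The F1-HHcy libraries had 0.0408, 0.0327 and 0.123 FPKM. The F1-HHcy replicate 3 came nearest to the controls with 23 fragments against their 39 to 63. Summed fragments, scaled to depth, were 4.07-fold higher in F1-Control (exact 95% interval 2.81 to 6.03), and the log2 fold change in limma-voom without a filter was -2.20 (SE 0.62, adjusted p = 0.153).

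Trp73 was at 3.42, 1.62 and 2.15 FPKM in F1-Control and at 0.741, 0.480 and 0.538 FPKM in F1-HHcy at Pd21, without overlap. It was called lower by limma on log2(FPKM + 1) with a change of -1.07 (SE 0.22, adjusted p = 0.0533). Trp73 passed the filter through F1-Control alone and had to be lower, so that this test is a description. In limma-voom without a filter the log2 change was -1.99 (SE 0.39, adjusted p = 0.0266). Unlike Mcidas, Trp73 was read in every F1-HHcy library, with 97 to 140 fragments at Pd21.

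Among the transcription factors of ciliogenesis, Foxj1, the main activator of motile cilium genes, had 99.1, 20.4 and 49.7 FPKM in F1-Control at Pd21, the second highest mean of the 10 genes. The F1-HHcy libraries had 0.371, 0.441 and 0.248 FPKM. Summed fragments, scaled to depth, were 161-fold higher in F1-Control (18160 against 111 fragments, exact 95% interval 133 to 196). Its log2 fold change by limma was -5.14 (SE 0.47, adjusted p = 0.00201), where adding 1 to the FPKM shrinks the change. Foxj1 passed the filter through F1-Control alone and had to be lower, so that this test is a description. In limma-voom without a filter the change was -7.06 (SE 1.04, adjusted p = 0.00583).

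Myb had 4.37, 1.32 and 5.24 FPKM in F1-Control and 0.117, 0.0549 and 0.128 FPKM in F1-HHcy at Pd21. The groups lay far apart, with 190 to 774 fragments against 8 to 19. Myb was called lower by limma with a log2 change of -1.96 (SE 0.35, adjusted p = 0.0246). As it passed the filter through F1-Control alone, it had to be lower, and this test is a description. In limma-voom without a filter the change was -5.01 (SE 0.86, adjusted p = 0.0133). MYB is also known from blood progenitors, and at Pd21 the summed level of 9 blood and erythroid markers was 35.5 to 205 FPKM in F1-Control and 49.4 to 340.5 FPKM in F1-HHcy, with overlap and with no marker called among the 4 tested. Over all genes tested, 686 of 13350 were called in either direction, and at that share 0 of 4 is no result about the blood markers.

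The RFX factors moved far less. Rfx2 had 5.87, 5.85 and 6.91 FPKM in F1-Control and 4.32, 3.47 and 4.28 FPKM in F1-HHcy at Pd21. The groups did not overlap, but the log2 change of -0.52 (SE 0.16, adjusted p = 0.264) was short of the fold required. Rfx3 had 1.26, 1.00 and 1.43 FPKM against 0.952, 0.778 and 0.834 FPKM, with a log2 change of -0.26 (SE 0.17, adjusted p = 1.0).

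The genes of centriole amplification split. Deup1, which builds the deuterosome, a ring-like body on which many centrioles form at once, had 4.24, 0.661 and 4.77 FPKM in F1-Control at Pd21. The F1-HHcy libraries had 0.216, 0.171 and 0.260 FPKM, a range close to that of all libraries at Pd3 and Pd7 (0.167 to 0.396 FPKM). Its log2 fold change in limma-voom without a filter was -3.47 (SE 0.95, adjusted p = 0.134), and the summed fragments, scaled to depth, were 15.0-fold higher in F1-Control (exact 95% interval 12.3 to 18.6).

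Cdc20b had 0.584, 0.141 and 1.16 FPKM in F1-Control and 0.00530, 0 and 0.0194 FPKM in F1-HHcy at Pd21. This was 119, 28 and 237 fragments against 1, 0 and 4, a ratio scaled to depth of 75.5 (exact 95% interval 32.1 to 234). Its log2 fold change was -5.94 (SE 1.08, adjusted p = 0.018 in limma-voom without a filter). Gpx8 lies within Cdc20b and had 58.2 to 69.2 FPKM in the F1-HHcy libraries in which Cdc20b had 0 to 4 fragments.

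Ccno, the cyclin that is required for the amplification of centrioles, had 98.2, 69.9 and 75.9 FPKM in F1-Control and 98.9, 74.8 and 95.8 FPKM in F1-HHcy at Pd21. The groups overlapped, with a log2 change of 0.15 (SE 0.18, adjusted p = 1.0). Ccno had the highest mean of the 10 genes in every one of the 6 groups.

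In the fit on log2(FPKM + 1), 6 of the 10 genes passed the filter at Pd21 and 3 were called, Foxj1, Myb and Trp73, all lower. Over all genes tested at Pd21, 5.06% of 13350 were called lower. The 3 called genes were at 1 FPKM or more in F1-Control libraries alone. Genes which passed in this way had to differ, so that the count and the tests of these 3 genes in this fit are a description. Without any 1 of the F1-Control libraries, F1-Control replicate 1, 2 or 3, these 3 genes fell below the filter and 0 members were called, and with the genes of the whole comparison kept 3 were called in each of the 6 fits. In limma-voom without a filter all 10 genes were tested and 8 were called lower, all but Rfx3 and Ccno, while 6.64% of 27810 genes were called lower. Leaving out each library in turn, 7 to 9 of the 10 genes were called in limma-voom without a filter, with Mcidas between -7.83 and -6.69, Foxj1 between -7.66 and -6.52 and Trp73 between -2.23 and -1.70 on the log2 scale.

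**Figure D2:**
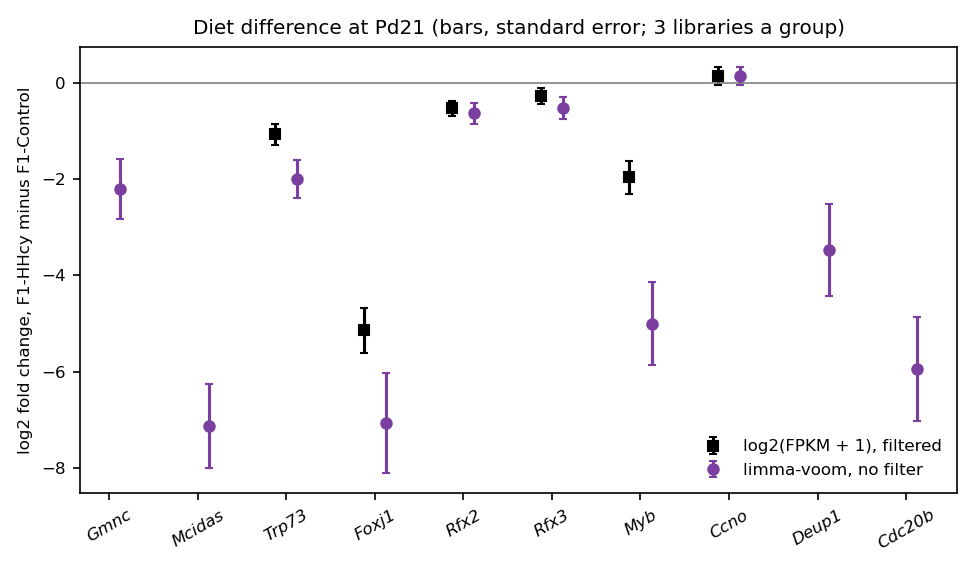
Log2 fold change of the 10 genes at Pd21, F1-HHcy minus F1-Control, with standard errors, from log2(FPKM + 1) with a filter on low values (squares, 6 genes) and from limma-voom on recovered fragments without a filter (circles, 10 genes). Mcidas and Foxj1 lie at -7.14 and -7.06 in limma-voom, and Ccno lies at 0.15 in both.

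The 3 F1-Control libraries at Pd21 differed among themselves. Replicate 2 was the lowest of the 3 for all 10 genes. The ratio of the highest to the lowest library was 8.23 for Cdc20b, 7.21 for Deup1, 4.99 for Mcidas, 4.87 for Foxj1 and 3.96 for Myb, against 1.18 for Rfx2 and 1.40 for Ccno. The highest library was not the same for all genes. Foxj1, Trp73, Gmnc and Ccno were highest in replicate 1, and Mcidas, Myb, Deup1, Cdc20b, Rfx2 and Rfx3 were highest in replicate 3. From replicate 1 to replicate 3 the level of Cdc20b changed by a factor of 1.98 and that of Mcidas by 1.33, while that of Foxj1 changed by 0.501. These are 3 libraries of 1 group, and no test of these differences was made.

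**Figure D3:**
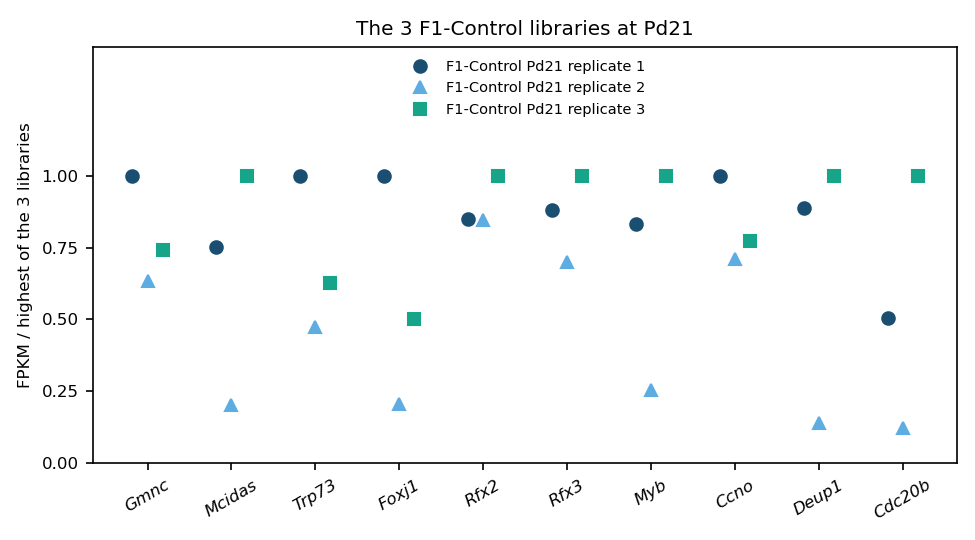
FPKM of each gene in the 3 F1-Control libraries at Pd21, divided by the highest of the 3. Replicate 2 is the lowest for all 10 genes, and replicate 1 or replicate 3 is the highest.

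The order of the mean levels in F1-Control at Pd21 was Ccno (81.3 ± 14.9 FPKM, SD, n = 3), Foxj1 (56.4 ± 39.8), Rfx2 (6.21 ± 0.608), Myb (3.65 ± 2.06), Deup1 (3.22 ± 2.23), Trp73 (2.40 ± 0.922), Rfx3 (1.23 ± 0.215), Mcidas (0.810 ± 0.509), Cdc20b (0.628 ± 0.510) and Gmnc (0.270 ± 0.0639). Neighbours in this order whose libraries did not overlap were Foxj1 and Rfx2, Rfx2 and Myb, and Trp73 and Rfx3. In F1-HHcy at Pd21 the order was Ccno (89.8 ± 13.1), Rfx2 (4.02 ± 0.480), Rfx3 (0.855 ± 0.0890), Trp73 (0.586 ± 0.137), Foxj1 (0.354 ± 0.0978), Deup1 (0.216 ± 0.0446), Myb (0.10 ± 0.0394), Gmnc (0.0654 ± 0.0498), Cdc20b (0.00823 ± 0.0100) and Mcidas (0.00231 ± 0.00399). Here the neighbours whose libraries overlapped were Foxj1 and Deup1, Myb and Gmnc, and Cdc20b and Mcidas. Foxj1, next to Ccno in F1-Control, thus stood below Rfx2, Rfx3 and Trp73 in F1-HHcy.

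At Pd3 and Pd7 Mcidas, Gmnc and Cdc20b were near the limit of reading in both diets. Mcidas had 0 to 7 fragments per library, Gmnc 0 to 10 and Cdc20b 0 to 14, and Mcidas was at 0 in 7 and Cdc20b in 7 of these 12 libraries. Foxj1 was at 0.0646 to 2.13 FPKM and Deup1 at 0.167 to 0.396 FPKM. With so few fragments, small differences between the diets in Mcidas, Gmnc or Cdc20b were not detectable on those days. Ccno, Rfx2 and Rfx3 were read in every library, with at least 1617, 306 and 248 fragments.

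At Pd3 the filter left Foxj1, Rfx2, Rfx3 and Ccno, and 0 of these 4 were called by limma (0 with an unadjusted p under 0.05), against 9.74% of 13277 genes. Foxj1 had 0.463, 1.28 and 1.54 FPKM in F1-Control and 0.639, 1.61 and 2.13 FPKM in F1-HHcy, with overlap and a log2 change of 0.22 (SE 0.30, adjusted p = 0.701). Rfx2 changed by -0.14 (SE 0.17) and Ccno by -0.06 (SE 0.11) on the log2 scale. Without overlap 1 of the 10 members was higher at Pd3, Rfx3, and 1 lower, Myb. Of the 27825 genes with any fragment, 2557 were higher and 2982 lower in this way. At that share these counts are no result about the members. In limma-voom without a filter 2 of the 10 genes were called at Pd3, Myb lower and Rfx3 higher, against 11.8% of 27825 genes in either direction.

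Myb had 1.02, 0.739 and 0.694 FPKM in F1-Control at Pd3 and 0.183, 0.133 and 0.430 FPKM in F1-HHcy. The groups did not overlap, and limma-voom without a filter gave a log2 change of -1.87 (SE 0.49, adjusted p = 0.104). The 9 blood and erythroid markers summed to 4669, 2580 and 1495 FPKM in the same F1-Control libraries and to 286, 439 and 340.2 FPKM in F1-HHcy, and 8 of the 8 tested were called lower. None of the 29 cilium markers in the files was called at Pd3 among 12 tested, and their summed level was 51.0 to 60.0 FPKM in F1-Control and 56.8 to 64.7 FPKM in F1-HHcy. The part of blood cells in the level of Myb at Pd3 was not tested.

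Rfx3 had 0.681, 0.699 and 0.813 FPKM in F1-Control at Pd3 and 1.04, 1.19 and 1.21 FPKM in F1-HHcy, higher without overlap. The log2 fold change was 0.31 (SE 0.14, adjusted p = 0.231) on log2(FPKM + 1) and 0.65 (SE 0.19, adjusted p = 0.128) in limma-voom without a filter. At Pd7 Rfx3 had 1.32, 0.3904 and 1.16 FPKM in F1-Control and 1.57, 1.80 and 1.30 FPKM in F1-HHcy, with overlap.

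At Pd7 the filter left Rfx2, Rfx3 and Ccno, and 0 of these 3 were called by limma (1 had an unadjusted p under 0.05), against 16.4% of 13299 genes. Rfx2 had 4.62, 4.03 and 3.42 FPKM in F1-Control and 2.60, 2.89 and 3.08 FPKM in F1-HHcy, lower without overlap, with a log2 change of -0.38 (SE 0.16, adjusted p = 0.134). Rfx3 changed by 0.41 (SE 0.21) and Ccno by -0.38 (SE 0.27) on the log2 scale. Without overlap 2 of the 10 members were higher at Pd7, Trp73 and Gmnc, and 1 lower, Rfx2. Of the 27626 genes with any fragment, 4099 were higher and 3707 lower in this way. At that share these counts are no result about the members. In limma-voom without a filter 4 of the 10 genes were called at Pd7, Trp73, Gmnc and Rfx3 higher and Foxj1 lower, against 19.1% of 27626 genes in either direction.

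Trp73 had 0.0214, 0.0864 and 0.151 FPKM in F1-Control at Pd7 and 0.464, 0.392 and 0.551 FPKM in F1-HHcy. This was 4, 16 and 29 fragments against 83, 69 and 107. Trp73 was thus higher without overlap, as were 4099 of 27626 genes at Pd7, and opposite to Pd21. The log2 fold change in limma-voom without a filter was 2.76 (SE 0.61, adjusted p = 0.0268), and it lay between 2.00 and 3.34 when each library was left out in turn. On the same day the granulosa markers summed to 239 to 519 FPKM in F1-Control and 527 to 886 FPKM in F1-HHcy, with 6 of 8 called higher. The oocyte markers summed to 2036 to 3196 and 1258 to 1803 FPKM, with 10 of 14 called lower and 2 higher. Of all 13299 genes tested at Pd7, 1205 were called higher and 978 lower. The part of granulosa cells or oocytes in the level of Trp73 was not tested.

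Foxj1 at Pd7 had 0.740, 0.635 and 0.861 FPKM in F1-Control and 1.21, 0.0646 and 0.156 FPKM in F1-HHcy. The F1-HHcy replicate 1 was above every control and the other two were below every control. The log2 fold change in limma-voom without a filter was -1.64 (SE 0.75, adjusted p = 0.21). The call held in 1 of the 6 fits that left out a library, with changes from -2.80 to -0.79. Gmnc, also called by that test, rested on 2, 2 and 0 fragments in F1-Control and 10, 3 and 5 in F1-HHcy (log2 fold change 2.04, SE 0.88, adjusted p = 0.186), and was called in 3 of the 6 such fits, Rfx3 in 2 (0.31 to 1.18).

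Between Pd3 and Pd7, which share a batch, 0 of 2 members tested in F1-Control were called by limma, against 14.8% of 13336 genes, and 0 of 4 in F1-HHcy, against 11.1% of 13257 genes. Of the members tested, 0 in F1-Control and 1 in F1-HHcy, Rfx2, had an unadjusted p under 0.05. In limma-voom without a filter Myb was the 1 member called of 10 in F1-Control, against 17% of 27600 genes. It fell from 0.694 to 1.02 FPKM at Pd3 to 0.180 to 0.275 FPKM at Pd7 (log2 fold change -1.89, SE 0.40, adjusted p = 0.0221). In F1-HHcy the same test called 3 of 10, against 13.2% of 27880 genes, with Trp73 higher at Pd7 (2.12, SE 0.62, adjusted p = 0.146) and Foxj1 (-2.44, SE 0.90, adjusted p = 0.211) and Rfx2 (-0.58, SE 0.22, adjusted p = 0.227) lower. Leaving out each library in turn, Trp73 was called in 6 of 6 fits (1.68 to 2.91), and Foxj1 (-3.60 to -1.59) and Rfx2 (-0.70 to -0.44) in 3 each. Of the blood and erythroid markers, 8 of 8 tested were called lower at Pd7 in F1-Control, against 1036 of 13336 genes. In F1-HHcy 3 of 4 tested were called lower, against 711 of 13257 genes, and Myb was not called there. The part of blood cells in the level of Myb was not tested.

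In F1-Control the means of Pd21 stood above those of Pd7 by a wide margin for 7 genes, from 0.745 to 56.4 FPKM for Foxj1, from 0.218 to 3.65 for Myb, from 0.272 to 3.22 for Deup1, from 0.0863 to 2.40 for Trp73, from 0.0163 to 0.810 for Mcidas, from 0.00522 to 0.628 for Cdc20b and from 0.00789 to 0.270 for Gmnc. In F1-HHcy the same genes went from 0.477 to 0.354 FPKM for Foxj1, from 0.182 to 0.10 for Myb, from 0.244 to 0.216 for Deup1, from 0.469 to 0.586 for Trp73, from 0.0171 to 0.00231 for Mcidas, from 0.00934 to 0.00823 for Cdc20b and from 0.0363 to 0.0654 for Gmnc. Age and batch cannot be told apart in these values, and they were not tested.

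The diet effect itself was compared between days in 1 model of all 18 libraries. Trp73 reached 1 FPKM in the 3 F1-Control libraries of Pd21 alone and Myb in these and 1 other library, so that both entered this test through the group in which they were high, and the counts are a description. The effect at Pd21 was more negative than that at Pd7 for 4 of 6 members tested, Foxj1, Myb, Trp73 and Rfx3, against 9.72% of 14607 genes. Foxj1 differed by -4.82 (SE 0.59, adjusted p = 8.54e-05), Myb by -1.91 (SE 0.36, adjusted p = 0.00369), Trp73 by -1.503 (SE 0.24, adjusted p = 0.000921) and Rfx3 by -0.68 (SE 0.24, adjusted p = 0.13) on the log2 scale. Rfx3 was not called without F1-Control Pd7 replicate 2 (-0.45). In limma-voom without a filter 8 of 10 were called more negative, all but Rfx2 and Ccno, against 9.74% of 30172 genes. Against Pd3 the effect at Pd21 was more negative for Foxj1, Myb and Trp73, 3 of 6 members, against 9.04% of genes. The effect at Pd7 against that at Pd3 was called for 0 of 6 members (0 with an unadjusted p under 0.05 by limma, 0 of 10 in limma-voom without a filter), against 10% of genes (1465 of 14607) in either direction. These comparisons share the Pd21 libraries or the libraries of an earlier day.

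The genes that the program turns on were examined by 31 effector markers of multiciliated cells, structural and assembly proteins of the motile cilium, of which 29 were in the files. At Pd21 their summed level was 1145, 443 and 623 FPKM in F1-Control and 52.8, 78.4 and 111 FPKM in F1-HHcy. Every F1-HHcy library was below every F1-Control library for 27 of the 29, against the 8.45% given above. All 29 were tested and 28 were called lower (26 with an adjusted p under 0.05), with a median log2 change of -2.68, while the median over all genes tested was -0.01. Of the 29, 20 were under 1 FPKM in every F1-HHcy library, so that they passed the filter through F1-Control and had to be lower, and the count and median are a description. Tmem212 (-5.49, SE 0.31), the dynein light chain Dynlrb2 (-5.96, SE 0.40) and Ccdc153 (-5.92, SE 0.40) had the smallest p. Tppp3, abundant in ciliated cells, had 54.1 to 157 FPKM in F1-Control and 6.59 to 10.97 FPKM in F1-HHcy. Mlf1, with the highest mean level of the list, was the 1 marker not called (-0.41, SE 0.53, adjusted p = 1.0).

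Markers of the epithelium of the oviduct and rete moved with the program at Pd21. The 14 markers summed to 441, 160 and 662 FPKM in F1-Control and to 74.8, 42.6 and 78.9 FPKM in F1-HHcy, 10 of 14 were lower without overlap (8.45% of all genes), and 12 of 13 tested were called lower (5.06% of all genes tested) with a median of -1.33. Of these 13, 5 had an adjusted p under 0.05. In every F1-HHcy library 3 of the 13, Pax8 among them, were under 1 FPKM. These 3 passed the filter through F1-Control and had to be lower, so that the count, the median and the test of Pax8 are a description. Ovgp1, the secreted oviductal glycoprotein, had 37.5 to 365 FPKM in F1-Control and 0.370 to 2.10 FPKM in F1-HHcy (-6.13, SE 0.73, adjusted p = 0.00541), Pax8 changed by -2.36 (SE 0.37, adjusted p = 0.0149) and Cldn3 by -2.72 (SE 0.44, adjusted p = 0.016). The keratin Krt7 (-1.33, SE 0.35, adjusted p = 0.149) and the epithelial adhesion gene Epcam (-1.38, SE 0.36, adjusted p = 0.154) were called lower as well. F1-Control replicate 2 had the lowest sum of the 3 controls in this list and in the cilium, surface epithelium, centriole and oocyte lists, as it had the lowest level of each member. It was not the lowest in every list. Replicate 3 was lowest for the granulosa and proliferation markers and the partners described below. Replicate 1 was lowest for the blood markers and for the relatives of the members. The part of attached oviduct or rete tissue in the levels of the members was not tested.

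Of 8 markers of the ovarian surface epithelium, 6 were lower at Pd21 without overlap, against 8.45% of all genes. By limma 6 were called lower, against 5.06% of all genes tested, and 1, Krt18, had an adjusted p under 0.05. Changes were -1.43 (SE 0.29) for Krt18, -1.20 (SE 0.29) for Krt8, -1.42 (SE 0.37) for Krt19 and -0.87 (SE 0.23) for Upk3b. Lgr5 (0.04, SE 0.39) and Lhx9 (-0.07, SE 0.25) were not called. Summed levels were 374 to 502 FPKM in F1-Control and 130 to 253 FPKM in F1-HHcy. At Pd7 6 of 8 were called lower too (487 to 818 against 218 to 417 FPKM), a day on which the 29 cilium markers summed to 55.3 to 66.5 FPKM in F1-Control and 49.98 to 65.6 FPKM in F1-HHcy, with 3 of 11 tested called lower and 1 higher. At Pd7 the oviduct and rete list was lower in sum as well, at 95.5 to 148 FPKM against 53.3 to 64.5 FPKM, with 3 of 11 tested called lower and 2 higher. Over all 13299 genes tested at Pd7, 978 were called lower and 1205 higher.

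**Figure D4:**
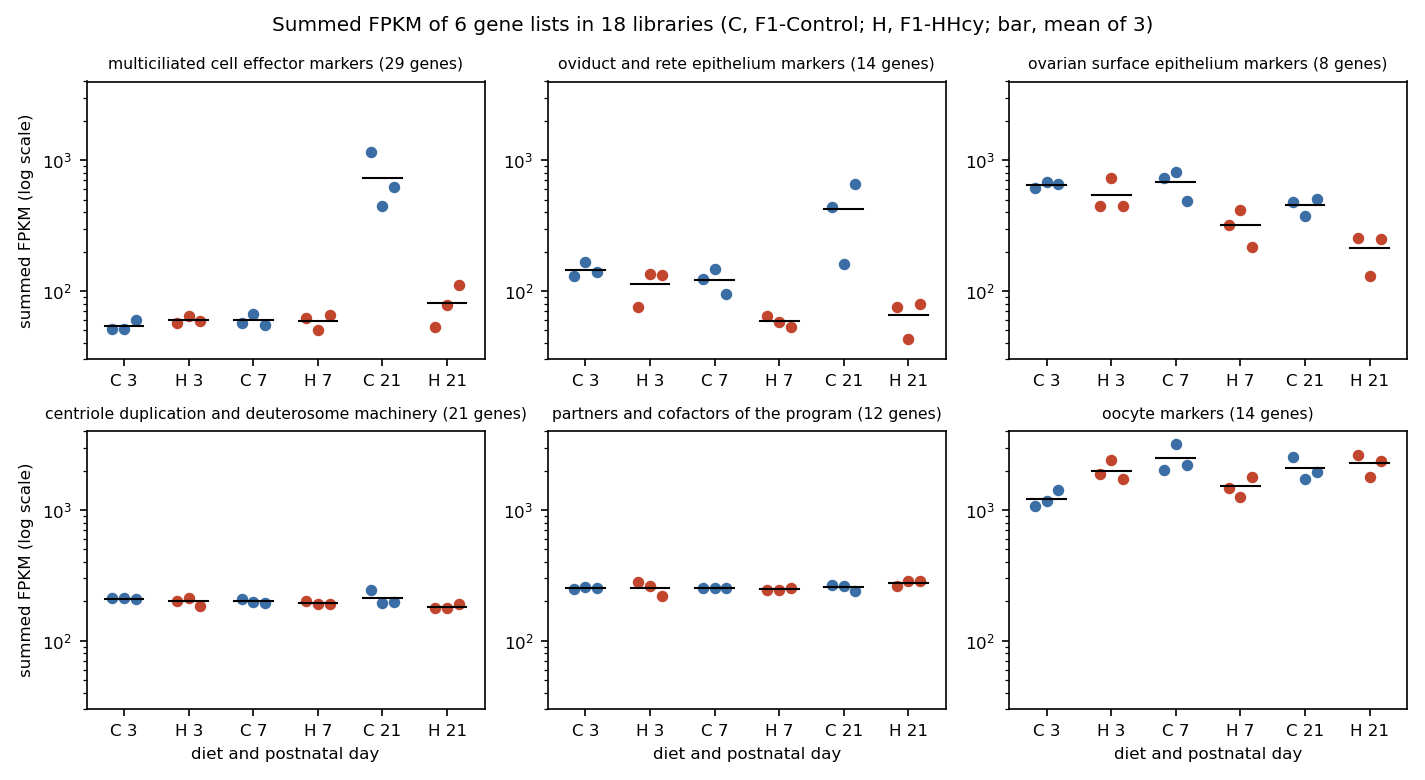
Summed FPKM on a log axis of 6 gene lists in each library, by diet (C, F1-Control; H, F1-HHcy) and postnatal day, with a bar at the mean of 3. The cilium effector list stands at 443 to 1145 FPKM in F1-Control at Pd21 and at 52.8 to 111 FPKM in F1-HHcy, while the partners stand at 220 to 286 FPKM and the centriole list at 178 to 246 FPKM over all libraries.

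No call was made among the general partners of the program. Of 12 partners and cofactors, 0 of 11 tested were called at Pd21 by limma, against 686 of 13350 genes in either direction, with a median of 0.08. At that share 0 of 11 is no result about the partners. Ccnb1, a mitotic cyclin, had a log2 change of 0.30 (SE 0.15, adjusted p = 0.889), E2f5, a partner of GMNC and MCIDAS, 0.27 (SE 0.19), and the cell cycle inhibitor Gmnn 0.24 (SE 0.20). Fzr1 and Tfdp1 changed by -0.04 (SE 0.13) and 0.04 (SE 0.15). The 1 partner below the filter, Foxn4, a forkhead factor of multiciliated cells named here after its values were seen, had 0.208 to 1.17 FPKM in F1-Control and 0.00708 to 0.0378 FPKM in F1-HHcy.

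Of 21 genes of centriole duplication and of the deuterosome, 2 were called lower at Pd21, against 5.06% of 13350 genes tested. So small a count is a description of these 2 genes and not a result about the list. Ccdc78, a deuterosome protein, had 5.50 to 14.6 FPKM in F1-Control and 0.0295 to 0.225 FPKM in F1-HHcy (-3.07, SE 0.31, adjusted p = 0.00283). It was under 1 FPKM in every F1-HHcy library, so that it passed the filter through F1-Control and had to be lower. Its test is a description. The centrin Cetn4 had 11.7 to 29.7 FPKM against 2.82 to 4.99 FPKM (-2.00, SE 0.32, adjusted p = 0.0148). The remaining 19, most of them general centriole genes, lay between -0.16 and 0.20 and were not called, such as -0.16 (SE 0.17) for Cetn2, -0.10 (SE 0.14) for Pcm1, 0.01 (SE 0.20) for Cetn3 and 0.20 (SE 0.20) for Cep70. The median of the list was -0.05.

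Of 17 relatives of the members in sequence, such as Foxj2 and Foxj3, other Rfx genes, Trp53 and Trp63, Mybl1 and Mybl2, and Cdc20, 0 of 13 tested were called at Pd21 by limma, with a median of 0.07. Over all genes tested, 686 of 13350 were called in either direction, and at that share 0 of 13 is no result about the relatives. Foxj2 changed by -0.21 (SE 0.19), Foxj3 by 0.12 (SE 0.14), Trp53 by -0.12 (SE 0.18) and Ccna2 by 0.16 (SE 0.25). A relative below the filter, the cyclin Ccna1, named after its values were seen, had 0.662 to 1.74 FPKM in F1-Control and 0.419 to 0.532 FPKM in F1-HHcy. A difference between a member and its relative was not tested.

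The 3 members on chromosome 13 did not move together. Mcidas and Cdc20b were lower in F1-HHcy at Pd21 without overlap, while Ccno, just upstream of Mcidas, overlapped. Of the genes in the files on either side in the RefSeq order, Plpp1 changed by -0.20 (SE 0.13) and Mtrex by 0.07 (SE 0.19) on the log2 scale. Dhx29 changed by -0.04 (SE 0.15) and Gpx8 by -0.13 (SE 0.14). None of these was called, against 686 of 13350 genes tested in either direction. At that share the lack of calls is no result about the neighbours. By overlap, Plpp1 was lower too, at 18.05 to 19.1 FPKM in F1-Control and 15.4 to 17.1 FPKM in F1-HHcy. Gzma had 0.145 to 0.329 FPKM in F1-Control and 0.0630 to 0.807 FPKM in F1-HHcy, and Gzmk was at 0 in all 6 libraries. The GTTGCC letters shown above were in the promoters of Ccno and Mcidas and not in that of Cdc20b.

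**Figure D5:**
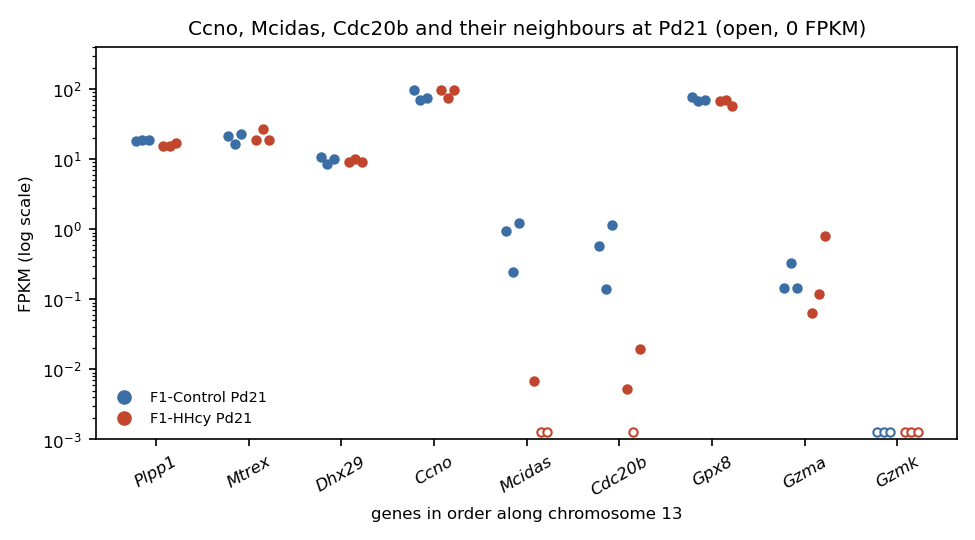
FPKM on a log axis of Ccno, Mcidas, Cdc20b and neighbouring genes, in their order along chromosome 13, in the 6 libraries of Pd21 (blue, F1-Control; red, F1-HHcy; open, 0 FPKM). Mcidas and Cdc20b differ between the diets, and Ccno, at 69.9 to 98.9 FPKM, and Gpx8, at 58.2 to 78.3 FPKM, overlap.

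The genes whose level was most like that of Foxj1 over all 18 libraries, by Pearson's r of log2(FPKM + 1) among 14606 genes, were Capsl (r = 0.994), Pifo (0.992), Ubxn10 (0.991), Cfap157, Drc1, 1700013F07Rik, Togaram2, Dnali1, Rsph4a and 2410004P03Rik (0.983). Over the 6 libraries of Pd21 they were Ubxn10, Cfap206, Fam216b, Pifo, Capsl, Tctex1d4, 9130015G15Rik, 1700016K19Rik, 3300002A11Rik and Kndc1, with r from 0.998 to 1.00. Of the members, Myb had an r of 0.920 with Foxj1 over 18 libraries and rank 199, Trp73 0.837 and rank 305, Rfx2 0.708 and rank 494, Ccno 0.425 and Rfx3 0.224. Mcidas, Gmnc, Deup1 and Cdc20b were below the filter of this listing. These values are a description over libraries that share age, batch and diet, and Foxj1 was above 2.13 FPKM in the 3 F1-Control libraries of Pd21 alone.

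Some members overlap other genes of the annotation, so that their reads may be shared where counting did not use the strand, which is not given in the sources used here. Trp73 overlaps Trp73os and Gm26036, Myb overlaps Gm26577, Deup1 overlaps 4930540M03Rik, and Rfx3 overlaps Gm8412 and Gm20407. Cdc20b overlaps Gpx8, 4930563N14Rik, Gm10735 and the Mir449 genes, while Gmnc, Mcidas, Foxj1, Rfx2 and Ccno overlap none.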

How the data were processed

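The deposited tables hold a normalized value for every gene symbol, read here as FPKM. For all 27294 genes above 0 in at least 3 libraries, 1 length per gene turned the values into whole fragments. The tolerance was 0.02 of a whole number, or 0.1 for the largest numbers. Many lengths were tried, and for genes above 0 in few libraries a match is easily found, so that recovery alone does not fix the unit. In FPKM the scale of a library is inverse to its fragments. The product of scale and summed fragments was 0.999983 to 1.000004 of that in F1-Control Pd3 replicate 1. The submitters' processing notes name FastQC 0.11.9, Trimmomatic 0.39, STAR 2.7.9a, featureCounts 2.0.1, DESeq2 1.36.0 and GRCm38, without their roles. The labels describe stranded poly-A libraries of whole ovary. Samples were grouped by diet and day from their labels, 3 libraries in each of 6 groups.

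Genes of at least 1 FPKM in at least 3 libraries were compared with limma 3.58.1 (R 4.3.3) on log2(FPKM + 1), 2-sided, with the prior variance following mean expression, for each day and between Pd7 and Pd3 within each diet on 6 libraries, and for the difference of diet effects between days on all 18. With 3 libraries against 3 an exact permutation test cannot go below p = 0.1. Intervals on ratios are exact binomial ones at 95%. The test was tried on simulated data. Members and lists were chosen with earlier results of these data known. Every member is named, and by the same rule, of each list, the 3 genes of highest mean and the 3 of smallest p at Pd21. The blood and erythroid, oocyte, granulosa and proliferation lists, which describe the tissue, are given by sums and counts without the genes this rule names. Coordinates are from GENCODE M21 and promoters from RefSeq. Python 3.11.15, pandas 2.3.3 and matplotlib 3.10.9 were used. Alternatives were a pseudocount of 0.1, no filter, a filter of 0.1 FPKM with a pseudocount of 0.1, median-ratio scaling, limma-voom, the adjusted p, all 18 libraries in 1 model, a replicate block, and leaving out each library.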

Additional observations from a re-analysis of the deposited data

Results flagged for a closer look

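The diet effect differed between Pd21 and the earlier days for 3 members by a test of the difference itself with an adjusted p under 0.05 (limma on log2(FPKM + 1), 18 libraries). Against Pd7 it differed by -4.82 for Foxj1, -1.91 for Myb and -1.503 for Trp73 on the log2 scale. Against Pd3 it differed by -5.36 for Foxj1 (SE 0.59, adjusted p = 2.71e-05), -1.41 for Myb (SE 0.36, adjusted p = 0.0295) and -1.17 for Trp73 (SE 0.24, adjusted p = 0.00693). In limma-voom with the same filter 1 of these members kept an adjusted p under 0.05 in each comparison, Trp73 against Pd7 (0.0198) and Foxj1 against Pd3 (0.0134), while all 3 were called by the unadjusted p and the fold. Leaving out each library in turn, the adjusted p of Myb against Pd3 was under 0.05 in 4 of 12 fits and reached 0.102 without F1-Control Pd21 replicate 3, and Trp73 was below the filter without any 1 F1-Control library of Pd21. Trp73 reached 1 FPKM in those 3 libraries alone and Myb in those and 1 other, so that both entered the test through the group in which they were high. Each diet effect lies within a batch, but whether the difference goes with age or with batch cannot be told apart, since Pd21 was a batch of its own. The Trp73 difference against Pd7 joined opposite directions. Every F1-HHcy library was above every F1-Control library at Pd7 and below at Pd21. At Pd3 the Trp73 groups overlapped, and its diet effect at Pd21 alone was -1.07.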

How the results depend on the processing

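At Pd21 3 members were called lower, and 2 by the adjusted p, since Trp73 missed it. The count was 6 without a filter, 8 with a filter of 0.1 FPKM and a pseudocount of 0.1 together (4 with that pseudocount alone) and 8 in limma-voom without a filter, all with 10 members tested but for the pseudocount alone. Leaving out 1 library gave 0 to 3, where each F1-Control library left out took Foxj1, Myb and Trp73 below the filter, and 3 in every case when the genes of the whole comparison were kept, and 7 to 9 in limma-voom without a filter. At Pd3 (0) the count was 2 with the filter and pseudocount of 0.1, 1 in limma-voom and 2 in limma-voom without a filter, and 0 to 2 without 1 library. At Pd7 (0) it was 1, 1 and 4, and 0 to 3. For Pd7 against Pd3 it was 1 in F1-Control with the filter and pseudocount of 0.1 and in limma-voom without a filter (0 to 2 without 1 library), and 2, 2 and 3 in F1-HHcy (0 to 3). For the diet effect at Pd21 against Pd7 (4) it was 7 without a filter and 8 under both other settings (3 to 5 without 1 library), and against Pd3 (3) it was 6, 8 and 8 (2 to 4). At Pd7 against Pd3 it was 0 to 1 without 1 library. Without F1-HHcy Pd7 replicate 3, Ccno was called lower at Pd7 (-0.70). The cause of these changes was not tested.

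Among members tested with the filter, directions reversed for Ccno between Pd3 and Pd7 in F1-Control (0.0168 with median-ratio scaling, and 0.0720, 0.0720 with the genes kept and 0.0732 in limma-voom without F1-Control Pd7 replicate 1, range -0.176 to 0.0732), Foxj1 at Pd3 (-0.0194, -0.0194 with the genes kept and -0.119 in limma-voom without F1-Control Pd3 replicate 1, up to 0.487 without another library) and the Rfx3 effect at Pd7 against Pd3 (-0.125 without F1-Control Pd7 replicate 2, up to 0.244). In limma-voom without a filter, leaving out 1 library also turned the sign of Mcidas at Pd3 (-0.56 to 0.92) and Pd7 (-1.74 to 0.55), Cdc20b at Pd7 (-0.91 to 1.18), Deup1 at Pd7 (-0.46 to 0.04), and, between Pd3 and Pd7, Trp73 (-0.32 to 1.59), Gmnc (-0.99 to 0.74) and Rfx3 (-0.11 to 0.76, called in 1 of 6 fits) in F1-Control and Mcidas (-0.93 to 1.35), Cdc20b (-1.61 to 1.20), Gmnc (-0.01 to 1.04) and Myb (-0.65 to 0.17) in F1-HHcy. The replicate block gave 3 called members at Pd21 and 0 on both earlier days, and changed no other count of members. The replicate numbers did not pair the libraries of the 2 diets, with correlations of the deviations of same-numbered libraries from -0.323 to 0.0935. Between Pd3 and Pd7 within a diet such correlations ran from -0.0280 to 0.273. Over all genes, counts moved by more than 1.5 times under some settings. With the adjusted p, the filter and pseudocount of 0.1 together and limma-voom without a filter, 1293 became 408, 2478 and 3288 at Pd3, 686 became 298, 1409 and 2066 at Pd21, and 1471 became 0, 2787 and 3684 between days in F1-HHcy. With the latter 2 settings 2183 became 4055 and 5290 at Pd7 and 1970 became 3674 and 4681 between days in F1-Control, where 934 higher and 1036 lower calls became 1112 and 814 with median-ratio scaling. For the diet effect, 1465 became 60, 2361 and 3090 (Pd7 against Pd3), 2231 became 568, 3383 and 4205 (Pd21 against Pd7) and 1904 became 671, 3034 and 3884 (Pd21 against Pd3). Leaving out 1 library with the filter gave 445 and 363 at Pd21 without F1-Control replicate 1 and 3 (395 and 359 lower), 1388 at Pd7 without F1-Control replicate 2, 1948 at Pd3 without F1-HHcy replicate 3, and 1474 for Pd21 against Pd7 without F1-Control Pd7 replicate 2. The fits that kept the genes or dropped the filter were chosen after seeing the data. Depth limits Mcidas, Gmnc and Cdc20b at Pd3 and Pd7, with at most 14 fragments per library.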

Other observations

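Ccno followed a course of its own. Its level was 25.6 to 59.3 FPKM at Pd3 and Pd7 and 69.9 to 98.9 FPKM at Pd21. In 4 of the 6 groups, all of those at Pd7 and Pd21, the 3 libraries stood in the same order for Ccno as for the summed level of the 14 oocyte markers, and in both groups at Pd3 they did not. In F1-HHcy at Pd7, for example, Ccno had 34.5, 25.6 and 59.3 FPKM and the oocyte markers summed to 1485, 1258 and 1803 FPKM. With 3 libraries few orders are possible, and the share of all genes in the same order was not counted. In F1-Control the oocyte sum was 1080 to 1422 FPKM at Pd3 and 2036 to 3196 FPKM at Pd7. Ccno stood at 46.5 to 54.9 and 40.8 to 57.9 FPKM in these groups. The part of oocytes in the level of Ccno was not tested. The genes most like Ccno over the 18 libraries, listed after its values were seen, were Cox10 (r = 0.964), Dtx2 (0.962), Cstf1 (0.946), Rph3al (0.944) and Cd177 (0.942), and Foxj1 had rank 3675 among 14606 genes.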
